A study of Mus musculus with 2 samples.

Results

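Asic2 encodes a subunit of the acid-sensing ion channels, proton-gated cation channels of neurons, and its gene body takes up about a megabase of mouse chromosome 11 next to Ccl2. Seen from the Ccl2 promoter in macrophages, the near part of this gene was ligated at many of its fragment ends and its far part at few, isolated ones. The stretch examined ran from position 80693193 to 81783192 in mm9, which is 65 to 1155 kb on the lower-coordinate side of the viewpoint at 81848193. Its members were all fragment ends in that stretch whose sequence has 1 copy in the genome. They numbered 4726, of 921359 such unique ends on the 2 viewpoint chromosomes of the series and 424567 on chromosome 11 beyond 5 kb from the Ccl2 viewpoint.

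The cells were bone marrow-derived macrophages of C57BL/6 mice, kept for 6 days in culture with L929-conditioned medium, labelled as the 7th day of differentiation and left untreated. 4C-seq, a form of chromosome conformation capture that looks out from a single viewpoint, was done once from the start of Ccl2 and once from that of Jun, so each viewpoint had 1 library and no replicate. The labels name no genotype or treatment that would set groups apart. Every value below describes the Ccl2 library unless Jun is named, and no p-value is given.

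In 4C-seq, cross-linked chromatin is cut with a first enzyme (DpnII here, which cuts at GATC), ligated, cut with a second enzyme (written Csp61 in the labels; Csp6I cuts at GTAC) and amplified outwards from the viewpoint. A read on a fragment end thus records a ligation of that place to the viewpoint. Contacts along a chromosome generally fall with distance, and stretches that share a topological domain with the viewpoint keep more of them. Ccl2 encodes a chemokine that draws monocytes to inflamed tissue and is a typical inducible gene of macrophages, while Asic2 is known mainly from the nervous system. No RNA was measured in this series, so the activity of Asic2 in these cells was not analysed here.

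Asic2 is annotated on the minus strand with 2 starts, and both promoter windows are shown because the fragment ends at each start are described further on. The windows come from RefSeq on GRCm38.p6 and run 5′ to 3′ along the gene and end shortly after the start. Capitals mark GATC, at which the chromatin was cut, and GTAC, the second site.
Asic2 start near Ccl2 (chr11:81968347-81968646, minus strand): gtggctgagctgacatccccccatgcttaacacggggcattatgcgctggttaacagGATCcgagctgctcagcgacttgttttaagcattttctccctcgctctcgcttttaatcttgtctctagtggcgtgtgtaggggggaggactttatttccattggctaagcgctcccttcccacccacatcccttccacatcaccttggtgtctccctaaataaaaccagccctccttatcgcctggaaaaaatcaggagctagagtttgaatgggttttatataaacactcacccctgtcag
Asic2 start inside the gene (chr11:81152854-81153153, minus strand): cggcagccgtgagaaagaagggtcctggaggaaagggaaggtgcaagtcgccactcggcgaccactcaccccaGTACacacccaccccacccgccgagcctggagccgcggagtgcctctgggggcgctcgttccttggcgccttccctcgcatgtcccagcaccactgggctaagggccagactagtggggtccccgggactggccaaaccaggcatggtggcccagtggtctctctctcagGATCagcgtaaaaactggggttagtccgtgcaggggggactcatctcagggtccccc
Each window holds GATC once, and the inner one also holds GTAC once. Of 32851 promoter windows of this length in the mouse table, 48.0% hold GATC and 35.8% hold GTAC, on either strand, as both words read the same on both.

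The annotation is of another build than the reads, so the gene was placed by its cutting sites. In the promoter windows of the genes from just beyond Asic2 to 1155 kb on the other side of Ccl2, 16 complete GATC-to-GATC fragments were found, 5 of them inside Asic2. All 16 had a fragment of exactly the same length in the deposited table at 1 common shift. This shift is between distances from Ccl2 in the annotation and distances from the viewpoint, not between the coordinates of the builds. It lay between 871 and 886 bp, a range of the width of a table bin. Distances from Ccl2 were therefore the same in both builds over this range to within that bin. The fragment on the higher-coordinate side of the GATC at the inner start had its second-cutter site 170 bp from that GATC in the deposited table. In the printed window GATC and GTAC also lie 170 bp apart. On this scale Asic2 spans 66.3 to 1155 kb from the viewpoint (1088 kb), and 5 of the 4726 ends lie outside it.

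Of the 4726 ends, 407 had at least 1 read, which is 8.61% (exact 95% interval 7.83 to 9.45%). The share over all unique ends of the chromosome beyond 5 kb from the viewpoint was 1.92%. The stretch held 36523 of 901507 reads beyond 5 kb, or 4.05% (4.01 to 4.09%), and 4.997% of the ends with a read. All intervals of shares of ends cover counting error alone, as neighbouring ends share 1 library. Those of shares of reads take each read as independent. The reads carry no molecular identifiers and lie on only 407 ends of the stretch, so these intervals can be too narrow even for the counting error of ligations.

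The same distances on the higher-coordinate side, towards the other CC chemokine genes, served as the comparison. There 862 of 4067 unique ends had a read, or 21.2% (19.9 to 22.5%), with 105648 reads. The Asic2 side was lower (difference -12.6 percentage points, Newcombe 95% interval -14.1 to -11.1). Reads per unique end were 7.73 in the Asic2 stretch and 26.0 on the higher side, a ratio of 0.297. The whole counting interval of the difference is negative, but it says nothing about the spread between cultures.

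**Figure D1:**
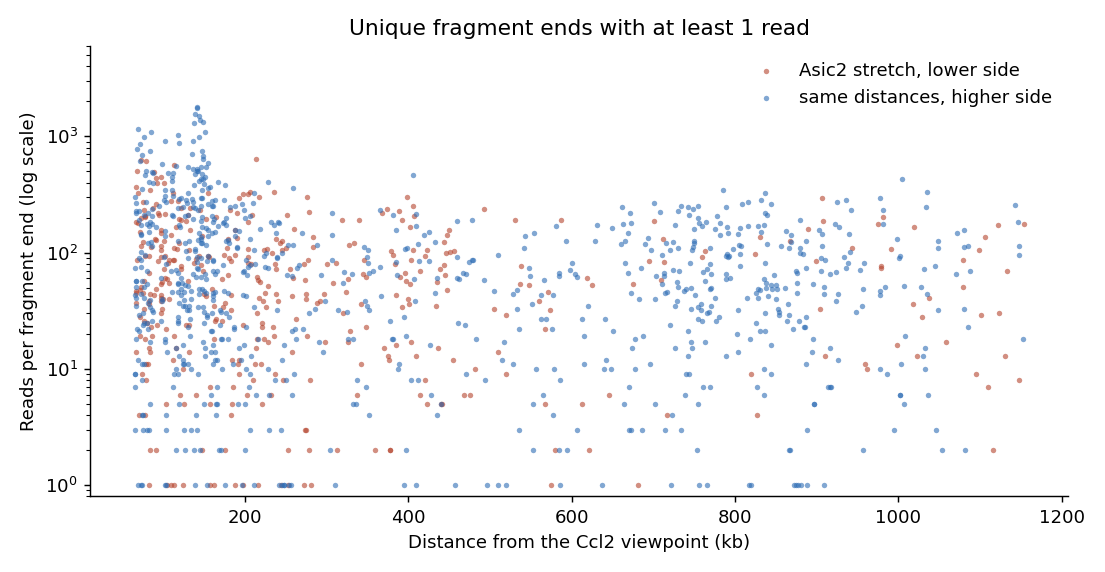
Each point marks 1 covered unique fragment end, by its distance from the Ccl2 viewpoint (x axis, kb) and its reads (y axis, log scale), for the Asic2 stretch (407 ends, red) and the same distances on the higher side (862 ends, blue). Red points thin out with distance and are sparse beyond 600 kb, where blue points are many. The highest points beyond 600 kb (292 reads for red, 427 for blue) lie below those from 65 to 200 kb (623 and 1793). The highest red point of all, 642 reads, lies between these zones, at 214 kb.

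Within Asic2 the coverage fell in steps with distance from Ccl2. In the class from 65 to 100 kb, reads were found on 77 of 138 ends (55.8%, 47.1 to 64.2%). From 100 to 150 kb it was 59 of 211 (28.0%, 22.0 to 34.5%), and from 150 to 200 kb 45 of 225 (20.0%, 14.98 to 25.8%). The part of the gene nearest to Ccl2 was thus the most often ligated to it.

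Farther in, 79 of 544 ends from 200 to 300 kb (14.5%, 11.7 to 17.8%), 41 of 430 from 300 to 400 kb (9.53%, 6.93 to 12.7%) and 51 of 836 from 400 to 600 kb (6.10%, 4.58 to 7.94%) had a read. Beyond 600 kb the shares were 1.74% of 863 ends from 600 to 800 kb (0.976 to 2.85%), 2.49% of 803 ends from 800 to 1000 kb (1.53 to 3.82%) and 2.96% of 676 ends from there to the far edge (1.82 to 4.53%). These last 3 classes had overlapping intervals, so no further fall was seen within the far part of the gene.

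The gap between the sides was not the same along the gene. From 65 to 100 kb the difference was -19.0 points (-29.7 to -7.54), and the higher side had a read on 74.8% of its ends there. It was widest from 100 to 150 kb, where the higher side reached 81.3% (difference -53.4, -60.8 to -44.5) and 39146 reads against 6316 in Asic2. From 150 to 200 kb the difference was -28.1 points (-36.3 to -19.4).

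From 200 to 400 kb the sides could not be told apart. The difference was -0.782 points from 200 to 300 kb (-5.22 to 3.58). There Asic2 had 6295 reads on 544 ends (11.6 per end) and the higher side 5376 on 477 (11.3 per end). It was -1.22 points from 300 to 400 kb (-5.38 to 2.89), with 3117 reads on 430 ends (7.25 per end) and 2609 on 409 (6.38 per end). From 400 to 600 kb it was -2.99 points (-5.55 to -0.453), just clear of 0.

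Beyond 600 kb the sides parted again, as Asic2 fell and the higher side itself rose. In the 3 classes from 200 to 600 kb the higher side had a read on 15.3%, 10.8% and 9.09% of its ends. In the 3 classes beyond 600 kb it had 17.1%, 19.03% and 14.0%. The differences beyond 600 kb were -15.4 points (-18.2 to -12.7), -16.5 points (-19.7 to -13.5) and -11.0 points (-15.8 to -7.07). Over the whole part beyond 600 kb, Asic2 held 4045 reads on 2342 ends and the higher side 24744 reads on 1800 ends. Grouped at 200 and 600 kb, limits taken after the classes were seen, the differences were -34.9, -1.75 (-3.76 to 0.257) and -15.0 points.

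**Figure D2:**
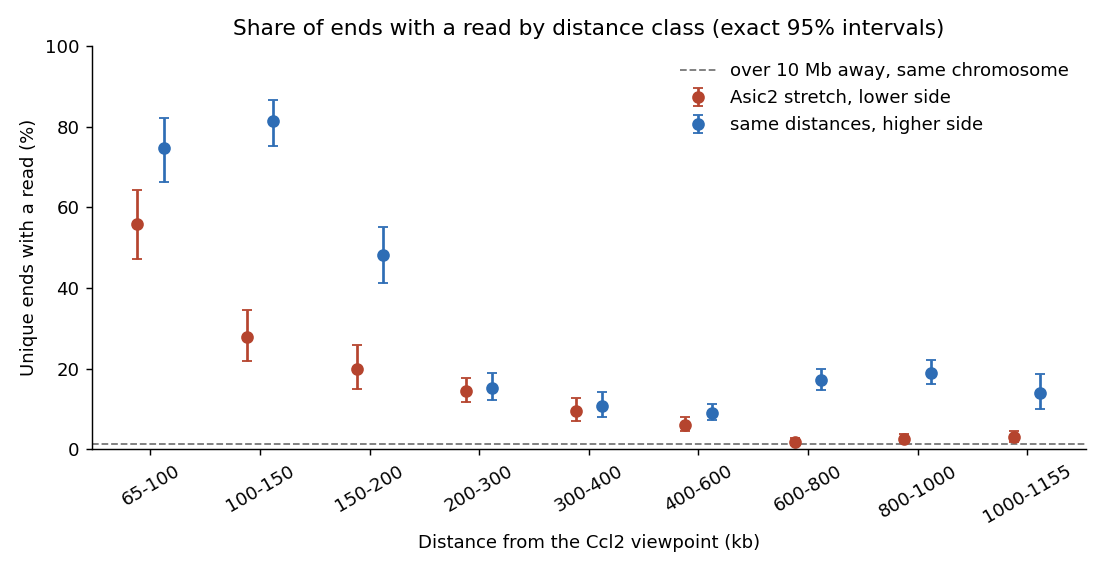
Percentage of unique ends with a read (y axis) in 9 distance classes (x axis, kb from the Ccl2 viewpoint) for the Asic2 stretch (red) and the higher side (blue), with exact 95% intervals; the dashed line is the share over 10 Mb away, 1.38%. The intervals of the sides overlap from 200 to 600 kb and stand apart up to 200 kb and beyond 600 kb, where Asic2 lies near the dashed line.

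The far part of Asic2 was set against 2 levels of the same chromosome. Its limit of 600 kb was taken with values of these data known, and the class shares drop there. Contrasts of the far part, here and below, are thus partly set by that limit and are descriptions without a test. Over 10 Mb from the viewpoint, 4833 of 350677 ends had a read (1.38%, 1.34 to 1.42%). The part of Asic2 beyond 600 kb stood at 55 of 2342 (2.35%, 1.77 to 3.05%), which is 0.970 points more (0.429 to 1.67). The far part was thus above the level of the distant chromosome by about 1 point and far below the same distances on the other side.

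Past the gene the coverage was higher again. In the next 1090 kb beyond Asic2 on the same side, 186 of 3839 ends had a read (4.85%, 4.19 to 5.57%). The far part of Asic2 lay below that (difference -2.50 points, -3.40 to -1.55) although it is closer to Ccl2. This contrast, too, rests on the limit of the far part. In steps of 200 kb from the far edge, the shares were 5.61%, 6.81%, 6.84%, 3.99% and 3.24%. On the higher side the same steps gave 8.77%, 6.54%, 6.13%, 3.14% and 2.41%. In gene order, Spaca3, Tmem98 and Myo1d follow Asic2 there, at 1167, 1213 and 1255 kb from the viewpoint. The rise was not placed at the gene's end: the last 60 kb inside had a read on 4.12% of ends and the first 60 kb outside on 5.52% (difference -1.40, -5.12 to 2.35).

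At the near edge, coverage was higher on the Ccl2 side of the Asic2 start. Steps of 10 kb from 35 to 65 kb had 93.1%, 88.0% and 82.7% of their ends covered. The steps from 65 to 105 kb gave 52.6%, 59.2%, 46.9% and 66.7%, and those from 105 to 125 kb gave 27.8% and 31.0%. Reads per end were 251 from 55 to 65 kb and 79.8 from 65 to 75 kb. On the higher side the share was 97.0% and then 76.8% at these 2 steps, with 440 and 131 reads per end. A fall over this step was thus present on both sides. The 10 unique ends just inside the edge held 143 reads on 4 ends, and the 10 just outside held 185 reads on 4. At the far edge, 1 of the 10 ends just inside had reads (176) and none of the 10 just outside.

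The surroundings of the 2 annotated starts of Asic2, which lie at very different distances from the viewpoint, differed widely in coverage. The start near Ccl2 lies 66.3 kb from the viewpoint, in a fragment of 299 bp centred at 81781937. Of the ends of that fragment, 1 had 14 reads and the other none. Within 20 kb of this start, counted on both sides of it, 136 of 193 ends had a read (70.5%, 63.5 to 76.8%), with 32581 reads. That window reaches outside the gene towards Ccl2, and from 65 to 85 kb alone the share was 56.3%. The inner start lies 882 kb from the viewpoint, at the border of fragments of 577 and 418 bp centred at 80966113 and 80966609, and all 4 of their ends were unique and had no read. Within 20 kb of it, 3 of 143 ends had a read (2.10%, 0.435 to 6.01%), with 371 reads. This share was close to the 2.35% of the far part of the gene as a whole. Its interval is wide, though, and also holds the 4.85% found beyond the gene. Between the starts 371 of 3577 ends had a read (10.4%, 9.39 to 11.4%), and beyond the inner one 35 of 1145 (3.06%, 2.14 to 4.23%).

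Asic2 contains 8 other annotated genes, of which 6 are long non-coding RNAs, 1 is a pseudogene and 1 is protein-coding. The non-coding genes Gm46254 and 5530401A14Rik, 124 to 174 kb from the viewpoint, overlap each other and had reads on 20.9% of 172 ends and 18.6% of 140 ends. Gm11418, at 441 to 447 kb, had reads on 6 of 35 ends (17.1%, 6.56 to 33.6%). 1700071K01Rik, the protein-coding gene, holds 1 unique end, without a read, and within 20 kb of it 13 of 176 ends had one (7.39%, 3.99 to 12.3%). Gm42084, at 775 to 791 kb, had no read on 54 ends, and Gm51910 and Gm51909 had 1 of 52 and 10 of 196. The pseudogene, Gm11416, had no read on 3 ends. The intervals of these short genes are wide, and none was compared with the ends around it by a test.

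In windows of 20 kb, the 3 with the highest share of ends with a read were the 3 nearest to Ccl2. They were 81743193 to 81763192 (57.4% of 68 ends, 5183 reads), 81763193 to 81783192 (56.3% of 87, 5807 reads) and 81723193 to 81743192 (29.2% of 96, 3370 reads). The decline was not even: from 365 to 445 kb the windows stood at 13.1%, 13.9%, 10.8% and 11.4%, after 6.56% from 345 to 365 kb. The intervals of these windows overlap (6.72 to 22.2% for the first and 1.82 to 15.9% for the lower neighbour). Overlap of single windows does not decide whether the windows differ as a group, and the rise was not tested. Of 55 windows, 33 had under 5% of ends with a read and 4 had none, all 4 beyond 700 kb.

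**Figure D3:**
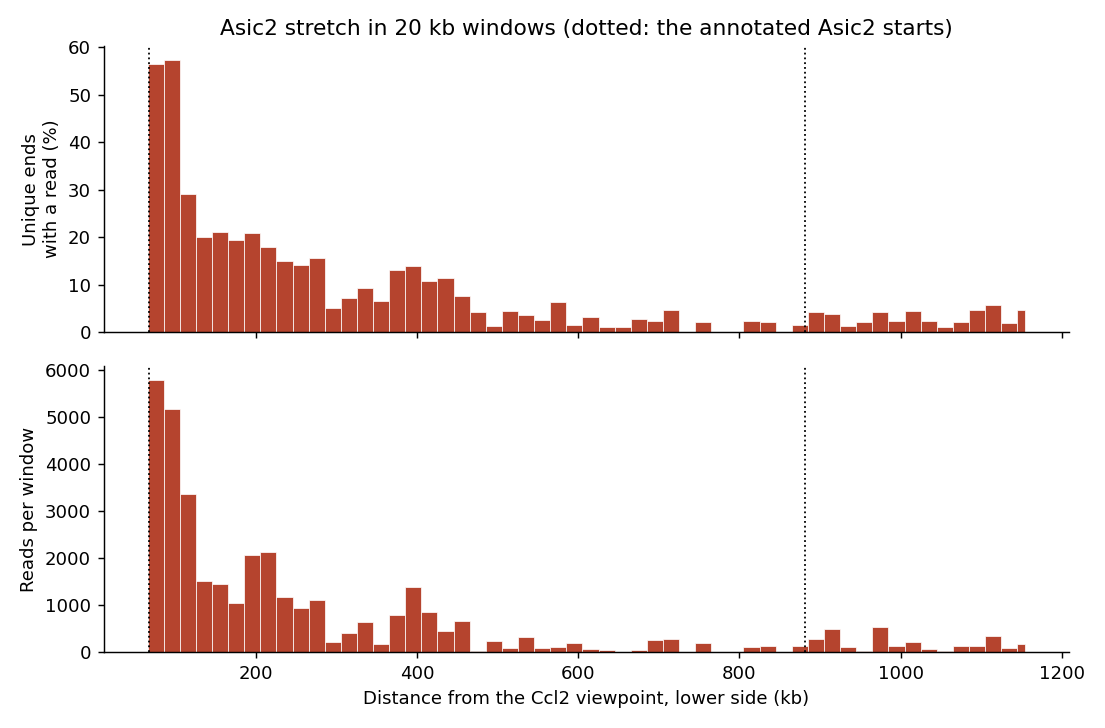
The Asic2 stretch in 55 windows of 20 kb by distance from the viewpoint (x axis, kb; the last window is cut by the edge), with the percentage of unique ends with a read above and the reads per window below; dotted lines mark the 2 annotated starts of Asic2. The bars fall from 56.3% and 5807 reads in the first window to 4 empty windows between 725 and 865 kb, and the outer dotted line stands among low bars.

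The 3 longest runs without any read lay between 717 and 868 kb, in the part between the starts. The longest spanned 56.1 kb from 81028577 to 81084641 and held 245 unique ends, where a count of 0 allows a share of up to 1.22%, taking 3 counts as the limit, as for the next runs. The next spanned 42.5 kb from 81088497 to 81131009 (193 ends, up to 1.55%) and the third 36.6 kb from 80980385 to 81016977 (138 ends, up to 2.17%). There were 10 such runs of over 20 kb in the stretch, none of them wholly within 600 kb of the viewpoint, and 2 on the higher side. The longest run on the higher side spanned 56.2 kb but held only 32 unique ends, so its length cannot be set against the 245 ends of the Asic2 run.

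Beyond 200 kb a smaller share of ends had a read. The ends with a read there also held fewer reads on average, while their median did not fall steadily. The mean was 109 reads per covered end from 65 to 200 kb, 74.9 from 200 to 600 kb and 73.5 beyond. Ends with a read had a median of 61 reads from 65 to 200 kb (quartiles 23 and 149), 46 from 200 to 600 kb (15 and 102.5) and 58 beyond 600 kb (13 and 108.5). The median over 10 Mb away was 45 (13 and 100). Over the whole stretch the median was 55, with 16 ends at 1 read and 20 at over 300. Of the 125 ends with over 100 reads, 64 lay within 200 kb and 17 beyond 600 kb. Of all 407 ends with a read, 181 and 55 lay there, so the strong ends were split by distance much like all covered ends. Without molecular identifiers, reads on 1 end can be copies of 1 ligation, and how far they are was not tested.

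Of all reads in the stretch, 8.09% fell on its 5 strongest ends. The strongest had 642 reads on a fragment of 113 bp at 81634497, 214 kb from the viewpoint, and the other end of that fragment had none. The next 3 had 623 reads at 81774929, 616 at 81769601 and 565 at 81734737, with 115, 11 and 86 reads on the other end of the same fragment. The fifth had 507 reads at 81780577, 67.6 kb from the viewpoint and just inside the gene, with 86 on its other end. Beyond 600 kb the strongest end had 292 reads, at 80941505 (907 kb), and a second end 1.1 kb away, at 80940401, had 188.

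Ends with a read lay side by side near Ccl2 and singly far from it. From 65 to 200 kb, 109 of 140 fragments with a read had a read on the next fragment on at least 1 side (77.9%, 70.1 to 84.4%). From 200 to 600 kb it was 71 of 163 (43.6%, 35.8 to 51.5%). Beyond 600 kb it was 0 of 55 (exact upper limit 6.49%), and no fragment had a read on both ends (0 of 51 with 2 unique ends, exact upper limit 6.98%). On the higher side beyond 600 kb it was 143 of 282 (50.7%, 44.7 to 56.7%). Over 10 Mb away it was 405 of 4746 (8.53%, 7.75 to 9.36%), and in the stretch beyond Asic2 38 of 182 (20.9%, 15.2 to 27.5%). The share of ends with a read differs between these stretches too and moves this measure, so it describes how dense the coverage was and is no test of grouping.

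Ends of fragments with a second-cutter site had reads more often. Of the 4726 ends, 57.1% belonged to fragments without a second-cutter site, and 5.26% of those had a read (4.45 to 6.17%) against 13.1% of ends on fragments with one (11.6 to 14.6%). Fragments with a site held 83.8% of the reads of the stretch. The higher side had a similar make-up, with 61.2% of ends on fragments without a site. Among fragments with a site, Asic2 was lower than the higher side (difference -17.0 points, -19.7 to -14.3), and also among those without (difference -10.3 points, -12.0 to -8.66). The difference between the sides was thus seen within both kinds. For the far part against the level over 10 Mb away, it was 1.75 points among fragments with a site (0.723 to 3.11) and 0.391 points among those without (-0.0597 to 1.12), an interval that includes 0.

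**Figure D4:**
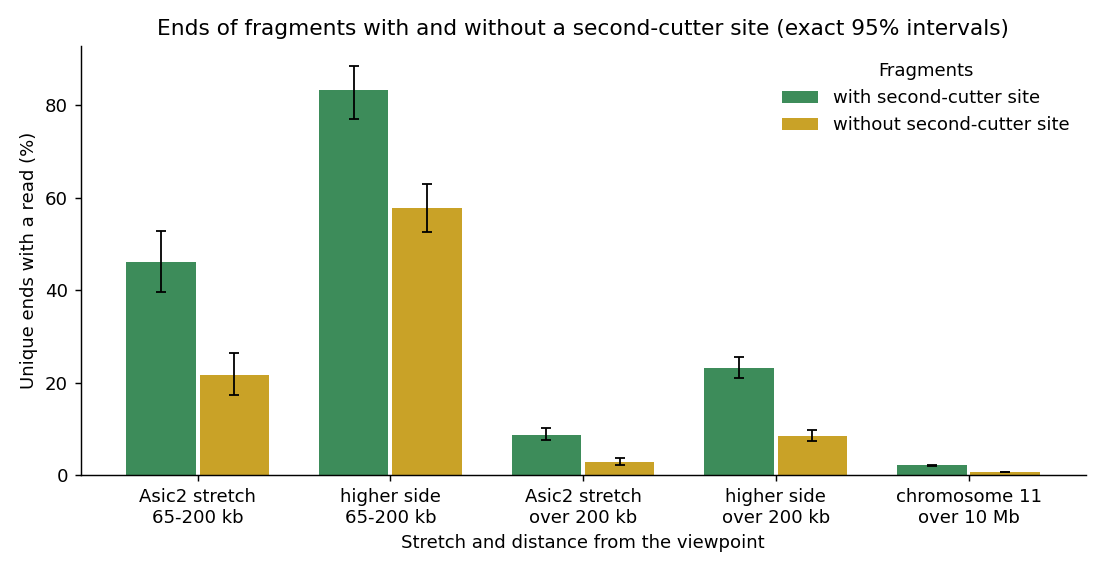
Percentage of unique ends with a read (y axis, bars from 0, exact 95% intervals) for fragments with (green) and without (yellow) a second-cutter site, in the Asic2 stretch and on the higher side at 65 to 200 kb and over 200 kb, and over 10 Mb from the viewpoint. In each pair the green bar is higher, and in both kinds the Asic2 stretch lies below the higher side.

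The reads of the stretch were concentrated at its near edge. Its nearest 100 kb, up to 165 kb from the viewpoint, held 17336 reads, 47.5% of the stretch (47.0 to 48.0%), and 37.1% of its ends with a read. On the higher side the nearest 100 kb held 60.2%. The fall of reads per end with distance had an exponent of -1.53 in Asic2 and -1.26 on the higher side, from 8 bins of equal log width. Counted by ends with a read, the exponents were -1.28 and -0.81. No error can be given for these slopes from 1 library.

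The Jun library gives the same measures around another promoter, on chromosome 4. At 65 to 1155 kb, 10.3% of 3693 unique ends on its lower side (9.30 to 11.3%) and 74.8% of 3915 on its higher side (73.4 to 76.1%) had a read. On the lower side of Jun the shares were 35.8% up to 200 kb, 13.1% from 200 to 600 kb and 3.16% beyond (2.43 to 4.03%), and 2 of 60 fragments with a read beyond 600 kb had a covered neighbour. The Asic2 stretch had 31.5%, 9.45% and 2.35% in these zones, so its sparse, single ends are not particular to it among the 4 flanks of the 2 viewpoints. The libraries differ in depth and viewpoint, and no test was made between them.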

How the data were processed

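The 2 tables used, 1 per 4C-seq library, each cover the viewpoint chromosome. Per the submitters' processing notes the build is mm9, and which aligner was used is not given in the sources at hand. The deposited values were read as estimated counts of reads on the 3′ and 5′ end of each DpnII fragment, not scaled to depth. The file headers name only the ends, and no source used here states the unit, which was inferred from the values. Of values between 0.05 and 10 on unique ends, 70.3% in the Ccl2 table lie within 0.1 of a whole number, and all values were rounded to whole reads, which moves the others by more. A multiplicity score per end, a fragment length and 2 further lengths stand beside them in the deposited tables, under short header names shifted by 1 column. The further lengths were taken, from how they change along the fragments, as distances to the second-cutter site, and the split by that site rests on this reading. They run on until a second-cutter site is reached, so a fragment whose distance to the next site exceeds its length has none.

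Ends with multiplicity 1 were used and the 5 kb around the viewpoint (centre of the fragment with the most reads) left out. The Ccl2 library held 1248937 reads on unique ends and the Jun library 1652054. Each library pools several PCRs of 1 template, per the labels' protocols. Shares have exact (Clopper-Pearson) 95% intervals and differences Newcombe intervals (Python 3.11.15, scipy 1.17.1, statsmodels 0.14.6). A test between samples needs replicates, and each viewpoint has 1 library. The members, classes and measures were chosen with earlier results of these data known. The text names Asic2, its neighbours and Ccl2, every distance class, the 3 windows with the highest share, the 3 longest runs without a read and the 5 ends with the most reads; the nested genes, the 2 starts and the strongest end beyond 600 kb were added after values were seen. Code was tested on simulated data. Alternatives were a minimum of 2 or 10 reads, all multiplicities, fragments of at least 100 bp, either end alone, a start at 100 kb, leaving out the 5 strongest ends, and, added after seeing the data, fragments with a second-cutter site only.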

Additional observations from a re-analysis of the deposited data

Results flagged for a closer look

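The Asic2 stretch also holds ends whose sequence occurs more than once in the genome, and some of these multi-copy ends, which enter no value above, carried reads. Of 326 such ends, 36 had a read (11.04%, exact 95% interval 7.86 to 14.96%), with 3339 reads. Over all multi-copy ends of the chromosome beyond 5 kb from the viewpoint the share was 3.90%, and over 10 Mb away it was 3.32% (3.17 to 3.48%). Within 200 kb of the viewpoint 11 of 37 had a read, and beyond 600 kb 5 of 156 (3.21%). On the higher side 198 of 733 had one (27.0%). A read on such an end can come from any of its copies, and its origin was not tested.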

How the results depend on the processing

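The 8 main results were recomputed under 9 alternatives. Of 72 values, 42 stayed within the interval of the main value (for the exponent, within rounding) and 30 moved beyond it. The intervals of shares and ratios of reads take each read as independent and are narrow, so a move beyond them need not be large. The differences and the exponent kept their sign under every alternative, while shares and a ratio of reads cannot change sign. The share of ends with a read became 7.13% with at least 10 reads, 9.73% on fragments of at least 100 bp, 7.19% for a stretch from 100 kb and 13.1% on fragments with a second-cutter site. The share of reads became 2.95% from 100 kb and 3.74% without the 5 strongest ends. The difference from the higher side became -10.5 points with at least 10 reads and -17.0 on fragments with a second-cutter site. The ratio of reads per end became 0.309 with all multiplicities, 0.307 from 100 bp, 0.258 from 100 kb and 0.293 with a second-cutter site. The share of reads in the nearest 100 kb became 45.6% from 100 bp, 49.1% on 3′ ends, 45.9% on 5′ ends, 36.7% from 100 kb, 44.8% without the 5 strongest ends and 44.8% with a second-cutter site. The exponent became, in the same order, -1.51, -1.59, -1.47, -1.50, -1.46 and -1.55, and -1.54 with all multiplicities. The far part's excess over the distant chromosome became 1.75 points with a second-cutter site. The share of fragments with a covered neighbour, 50.3% in all, became 28.1% on 3′ ends, 35.6% on 5′ ends, 43.6% from 100 kb and 34.9% with a second-cutter site, where fewer ends enter by construction. No pairing of samples was possible because each viewpoint has 1 library. Without replicates, no value here covers the spread between cultures, and a share of 0 is bounded only by its number of ends.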

Other observations

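Recovery of Asic2 ends also went with fragment length. Beyond 200 kb from the viewpoint, 1.64% of 792 ends on fragments under 100 bp had a read (exact 95% interval 0.877 to 2.79%), 4.26% of 752 from 100 to 200 bp (2.93 to 5.95%), 6.67% of 1080 from 200 to 400 bp (5.25 to 8.32%), 7.71% of 973 from 400 to 800 bp (6.11 to 9.57%) and 6.13% of 555 on longer ones (4.28 to 8.46%). The higher side gave 5.52%, 12.5%, 17.4%, 17.8% and 18.7% in the same classes, above Asic2 in each. The median fragment length over ends was 288 bp in the stretch and 267 bp on the higher side.

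The 2 ends of a fragment, as the table names them, could not be told apart in recovery. In the Asic2 stretch 8.38% of 2376 3′ ends and 8.85% of 2350 5′ ends had a read. The difference was -0.476 points, with an interval from -2.08 to 1.13 that includes 0. This interval takes the ends as independent, although 2157 fragments have both ends among them, and that pairing was not used.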
